A study of Mus musculus with 6 samples.

Results

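Transcripts of glycolytic enzymes and of the hypoxia-responsive transcription factor Hif1a were examined in leukocytes of the inflamed mouse knee. The set comprised 9 genes, chosen by symbol among the 20394 genes of the expression matrix, and every one of the 9 was found in it: Hif1a, Slc2a1, Hk2, Pfkl, Aldoa, Pgk1, Eno1, Pkm and Ldha. The cells came from male wild-type C57BL/6J mice, bought at 8 weeks of age, with antigen-induced arthritis (AIA), a model in which mice are immunised with methylated bovine serum albumin in complete Freund's adjuvant and the same antigen is later injected into the knee. From the day of that injection the animals received either the vehicle PBS (2 samples) or the PEGylated peptide PEPITEM at 300 µg (4 samples), and the joints were taken on day 3. CD45+ cells sorted from the digested joints gave 32953 single-cell transcriptomes. Immunisation, adjuvant and knee challenge were common to both treatments, no unchallenged joint was among the samples, and the labels do not say how many animals gave each sample.

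The deposited matrix pools the samples, and its cell barcodes carry library numbers 1 to 6 that no label ties to a treated animal. PEPITEM was therefore not compared with PBS. Levels were read by cell class and by library, the pooled matrix counted as 1 sample, and neither p-values nor SDs were computed. A level is the number of unique molecular identifiers (UMIs, each counting 1 captured transcript molecule) of a gene per 1000000 UMIs of a class, written CPM, with an exact Poisson 95% interval that covers counting error alone. Beside it stand the lowest, median and highest of the libraries that held at least 20 cells of the class. A gene was called different between 2 classes at 2-fold or more in pooled CPM, with at least 10 CPM in the higher class.

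Glycolysis splits glucose into pyruvate and yields ATP without oxygen. Glucose enters through transporters such as Slc2a1 (GLUT1) and is trapped as glucose 6-phosphate by hexokinases such as Hk2. It is committed to the pathway by phosphofructokinase (Pfkl, the liver-type subunit) and cleaved by aldolase (Aldoa). The pathway gives ATP at phosphoglycerate kinase (Pgk1) and, after enolase (Eno1), at pyruvate kinase (Pkm). Lactate dehydrogenase (Ldha) turns the pyruvate into lactate. Hif1a encodes the oxygen-regulated subunit of hypoxia-inducible factor 1, which is known to bind hypoxia response elements of many of these genes. The protein is controlled mostly by its degradation, so mRNA levels do not measure its activity, and inflamed joints are known to be poor in oxygen.

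The core of a hypoxia response element reads ACGTG or GCGTG. Of 32851 windows of 250 bases before RefSeq transcript starts (GRCm38.p6), 38.6% held that core on either strand and 16.7% held it at least 2 times. Hif1a, Slc2a1, Hk2 and Pgk1 have 1 such window each, and the core occurred 3, 2, 2 and 2 times in it. The upstream of the 2 Ldha windows held 5 matches, where a CACGTG counts on both strands. Pfkl had 1 match, while the windows of Aldoa, Eno1 and Pkm held between 0 and 2. The 4 windows below are those with at least 2 matches and no annotated exon base (GENCODE), and they are shown because the results for classes and libraries return to these genes. Those of Ldha and Hif1a lie in introns of longer transcripts of the same genes, those of Hk2 and Pgk1 directly before the gene. Capitals mark the core or its reverse complement, and a match of letters is a description, not evidence of binding.
Ldha, chr7:46845554-46845803, plus strand: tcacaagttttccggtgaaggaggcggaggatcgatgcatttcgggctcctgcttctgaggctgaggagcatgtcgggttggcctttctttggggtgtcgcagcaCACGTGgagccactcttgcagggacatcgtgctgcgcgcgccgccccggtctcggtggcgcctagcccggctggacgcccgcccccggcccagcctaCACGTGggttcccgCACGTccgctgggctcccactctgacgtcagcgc
Pgk1, chrX:106186850-106187099, plus strand: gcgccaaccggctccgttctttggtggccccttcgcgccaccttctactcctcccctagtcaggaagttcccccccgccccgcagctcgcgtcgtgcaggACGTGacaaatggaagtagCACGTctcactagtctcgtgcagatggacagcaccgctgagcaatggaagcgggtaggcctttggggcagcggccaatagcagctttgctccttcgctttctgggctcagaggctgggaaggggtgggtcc
Hk2, chr6:82774455-82774704, minus strand: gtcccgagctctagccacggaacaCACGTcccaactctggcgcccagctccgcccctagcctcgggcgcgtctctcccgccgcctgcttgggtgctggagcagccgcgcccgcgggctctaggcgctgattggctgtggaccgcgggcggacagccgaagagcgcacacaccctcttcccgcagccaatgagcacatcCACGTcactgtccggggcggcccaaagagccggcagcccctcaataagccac
Hif1a, chr12:73907617-73907866, plus strand: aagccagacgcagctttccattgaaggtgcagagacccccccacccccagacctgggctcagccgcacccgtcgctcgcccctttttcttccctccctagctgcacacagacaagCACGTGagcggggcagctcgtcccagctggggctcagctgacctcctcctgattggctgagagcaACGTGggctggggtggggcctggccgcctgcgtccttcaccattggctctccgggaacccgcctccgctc

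Cell classes were made by marker gates, in which a cell had to show set markers and to lack those of other lineages. They held 20471 cells (62.1%) in 25 classes, while 12094 cells passed no gate and 351 passed several. Libraries held 2919 to 9345 cells and 47273569 to 123367661 UMIs, with a median of 11376 UMIs per cell, and 138 barcodes occurred in 2 libraries. Class names stand for marker combinations, and in 23 of the 25 classes every fixed marker was found in at least 25% of the cells. The exceptions were Vsig4 in Fxyd2 macrophages (7.44% of cells) and Cd8a in T cells (24.8%). Most of these markers were part of the gates, so their detection was largely fixed by the gating and is no check of the names. Ptprc, which encodes CD45, the antigen of the sort, was found in 64.6% or more of the cells of every class except fibroblasts, where 7.87% of 89 cells had it. Csf1r, the receptor of monocytes and macrophages, was found without Flt3, Cd79a, Cd3e and Siglech in 11036 cells. Of these, 4728 (42.8%) also had at least 2 of 8 neutrophil markers, and they were kept out of the monocyte and macrophage classes.

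All 9 genes were found in every class, so none of the classes lacked them and could serve as a measure of free RNA. Their spread over classes differed. Hk2 varied 121-fold between its highest and lowest class, Ldha 14.2-fold, Aldoa 12.1-fold, Slc2a1 11.4-fold, Eno1 9.46-fold, Pkm 9.07-fold, Pgk1 8.71-fold, Hif1a 6.52-fold and Pfkl 4.31-fold. Arg1 macrophages, the Csf1r cells with arginase 1 and without Cxcl9, ranked first for Aldoa, Eno1 and Pkm. A class of the B lineage (pro-B, cycling pre-B or resting pre-B cells) stood last for 7 of the genes, and mast cells for Pgk1 and Eno1.

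**Figure D1:**
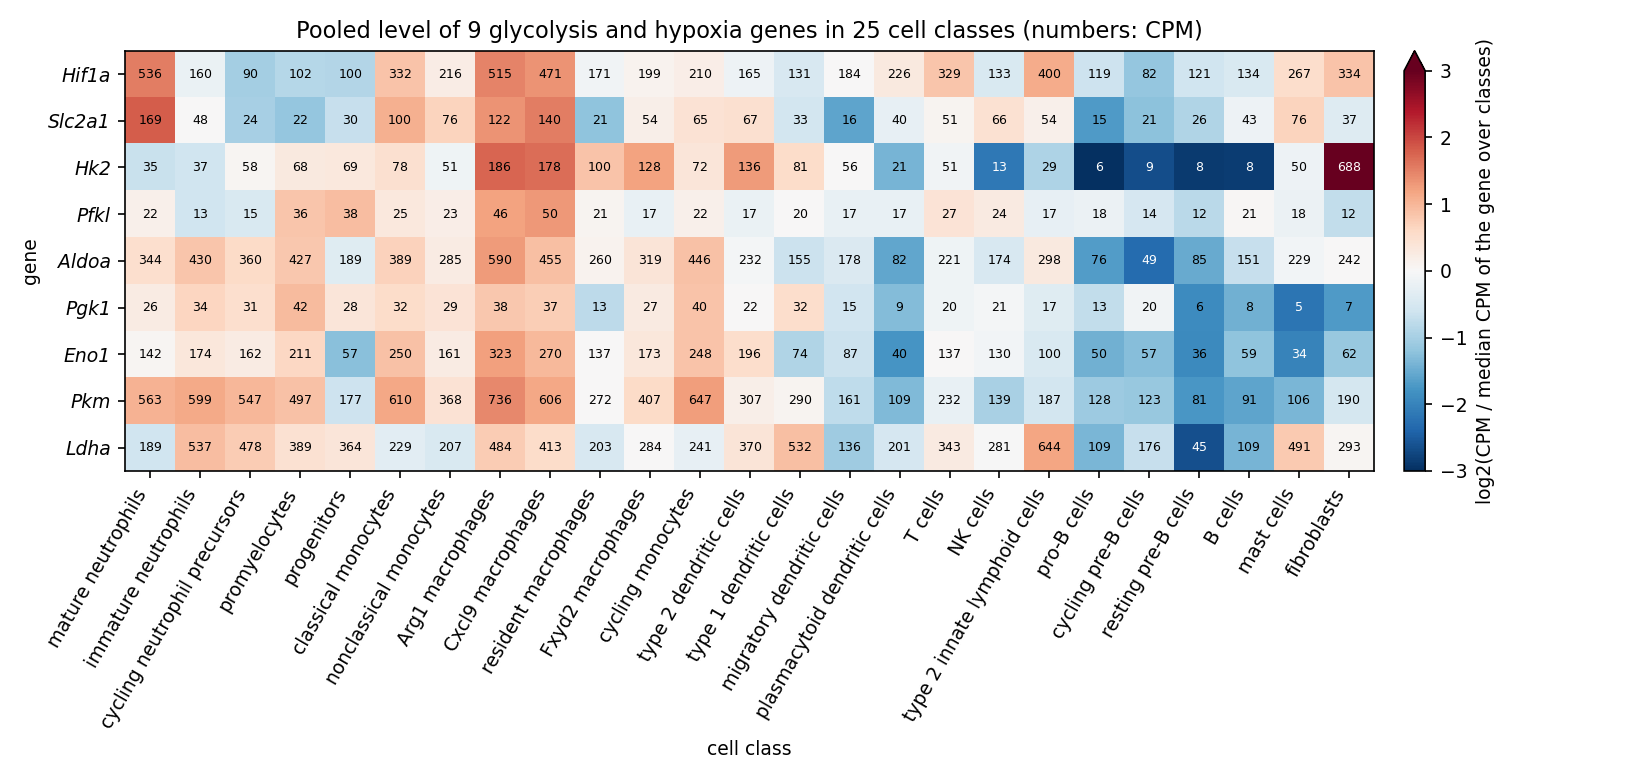
Pooled level of the 9 genes (rows) in 25 marker-gated cell classes (columns); the numbers are CPM and the colour gives log2 of the level over the gene's median class. Arg1 and Cxcl9 macrophages are at or above the median class for all 9 genes, mature neutrophils are high in Hif1a and Slc2a1 (536 and 169 CPM) but not in Hk2 (34.7 CPM), and Hk2 in fibroblasts (688 CPM) runs past the colour scale.

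Hif1a was highest in mature neutrophils, cells with late neutrophil markers such as Cxcr2 and without the granule transcripts Ltf and Camp. Their level was 536 CPM (95% interval 527 to 546), with 489, 525 and 664 CPM in the lowest, median and highest of 6 libraries. Arg1 macrophages followed with 515 CPM (libraries 291, 430 and 669) and Cxcl9 macrophages, which carry interferon-induced transcripts, with 471 CPM (5 libraries; 275, 483 and 533). The library ranges of these 3 classes overlapped, so their order is not resolved. Type 2 innate lymphoid cells (400 CPM), fibroblasts (334 CPM), classical monocytes (332 CPM) and T cells (329 CPM) came next. Their order is not resolved either. In type 2 innate lymphoid cells the libraries with enough cells gave 233 to 357 CPM, all under the pooled value. Classical monocytes ranged from 271 to 510 CPM and T cells from 204 to 454 CPM. At the other end, cycling pre-B cells had 82.3 CPM and cycling neutrophil precursors 90.1 CPM.

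Slc2a1, the basal glucose transporter, stood in nearly the same order at the top. Mature neutrophils had 169 CPM (163 to 174), and their libraries gave 130, 162 and 212 CPM. Cxcl9 macrophages had 140 CPM (libraries 65.5, 144 and 151), Arg1 macrophages 122 CPM (73.5, 106 and 167) and classical monocytes 100.4 CPM (87.7, 95.5 and 150), and these ranges overlapped one another. Resident macrophages, whose gate requires Lyve1, were near the bottom with 20.8 CPM (11.5, 19.5 and 25.3), and none of their libraries reached the lowest library of any of those classes.

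Hk2, the inducible hexokinase, separated fibroblasts from all leukocytes. The 89 fibroblasts held 914 Hk2 UMIs, or 688 CPM (644 to 734), and the 2 libraries with enough of them gave 446 and 941 CPM, both above every library of every other class. Arg1 macrophages came next with 186 CPM (libraries 130, 155 and 223). Cxcl9 macrophages had 178 CPM, type 2 dendritic cells 136 CPM, Fxyd2 macrophages 128 CPM and resident macrophages 100.4 CPM. In B-lineage cells Hk2 was between 5.68 CPM in pro-B cells and 8.76 CPM in cycling pre-B cells. Fibroblasts are not the target of the CD45 sort, and the other 4 libraries held between 3 and 9 of them.

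Pfkl, which catalyses the committing step, was the least variable of the genes. Cxcl9 macrophages (50.1 CPM, 44.3 to 56.5) and Arg1 macrophages (46.5 CPM, 42.6 to 50.7) led, followed by progenitors (38.4 CPM) and promyelocytes (35.7 CPM). Aldoa, which cleaves fructose 1,6-bisphosphate, was led by Arg1 macrophages with 589.5 CPM (libraries 382, 599 and 687), ahead of Cxcl9 macrophages (455 CPM), cycling monocytes (446 CPM) and immature neutrophils (429.9 CPM), whose ranges overlapped with theirs. Cycling pre-B cells had 48.7 CPM of Aldoa.

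Among the genes of the second stage of the pathway, Pkm reached 736 CPM in Arg1 macrophages (720 to 752; libraries 518, 725 and 909) and 599 CPM in immature neutrophils, against 81.2 CPM in resting pre-B cells. Cycling monocytes (647 CPM), classical monocytes (610 CPM) and Cxcl9 macrophages (606 CPM) stood between the first 2, with library ranges that overlapped those of Arg1 macrophages. Eno1 reached 323 CPM in Arg1 macrophages (libraries 231, 335 and 422) and 34.1 CPM in mast cells. Cxcl9 macrophages (270 CPM), classical monocytes (250 CPM) and cycling monocytes (248 CPM) followed the Arg1 class for Eno1, again with overlapping ranges. Pgk1 gave few UMIs, 42.5 CPM in promyelocytes, 38.4 CPM in Arg1 macrophages and 4.88 CPM in mast cells, so its shares of positive cells are low and depend on depth. Counts of Pgk1, Eno1 and Aldoa are also uncertain because reads can be shared with near-identical copies. The copy Pgk1-rs7 held 8.24% of the UMIs of both, Eno1b 1.9% and Aldoart1 0.0165%.

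Ldha, which converts pyruvate to lactate, had an order of its own. Type 2 innate lymphoid cells were highest with 644 CPM (590 to 702; 3 libraries, 576, 686 and 721), followed by immature neutrophils (537 CPM; 491, 539 and 614), type 1 dendritic cells (532 CPM), mast cells (491 CPM), Arg1 macrophages (484 CPM; 422, 448 and 574) and cycling neutrophil precursors (478 CPM). The ranges of the first 2 overlapped, so their order is not resolved. Among the 70 type 1 dendritic cells only 1 library had enough cells (496 CPM). Mature neutrophils, first for Hif1a and Slc2a1, had 189 CPM (144, 185 and 236), below every library of the immature neutrophils. Resting pre-B cells were lowest with 45.4 CPM.

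Neutrophil classes were ordered by markers, from promyelocytes through cycling precursors and immature cells to mature cells. Cycling precursors and immature cells hold the secondary granule transcripts Ltf, Ngp and Camp. The paper digested isolated joints, and the tissue site of the cells was not recorded. Whether levels followed marker stage or tissue site was not tested. Hif1a stood at 102, 90.1, 160.0 and 536 CPM along these classes and Slc2a1 at 21.5, 24.0, 48.1 and 169 CPM, whereas Ldha stood at 389, 478, 537 and 189 CPM and Hk2 at 67.6, 58.1, 36.8 and 34.7 CPM. The libraries of immature neutrophils ranged from 114 to 226 CPM for Hif1a and from 43.3 to 62.7 CPM for Slc2a1, and none reached the lowest library of the mature cells. From immature to mature neutrophils Hif1a was 3.35-fold higher (log2 1.74; libraries 1.55 to 2.10) and Slc2a1 3.51-fold higher (log2 1.81; 1.40 to 2.15), while Ldha was 2.85-fold lower (log2 -1.51; -1.77 to -1.27), each in 6 of 6 libraries. Aldoa, Eno1 and Pgk1 were lower in 6 of 6 libraries without passing 2-fold in the pooled cells (log2 -0.32, -0.29 and -0.40), and Pkm was at -0.09.

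Of the 9 genes, 2 were thus called higher and 1 lower in mature neutrophils, where 22.2% of the 5869 genes tested were higher and 8.20% lower. The median log2 ratio was -0.09 over the 9 genes and 0.26 over all genes. Genes with at least 10 CPM in both classes had a median of 0.21, and relative to it the log2 ratio was 1.53 for Hif1a and -1.72 for Ldha. Mature neutrophils had a median of 4679.5 UMIs per cell and immature ones 11229. After thinning each cell to 3000 UMIs, Hif1a was found in 70.0% of mature and 34.2% of immature neutrophils (unthinned 79.4% and 66.9%), Slc2a1 in 36.1% and 12.2% (unthinned 48.8% and 36.9%) and Ldha in 38.2% and 74.3% (unthinned 50.9% and 94.6%). Thinning left out 457 mature and 72 immature cells with fewer UMIs.

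From cycling precursors to immature neutrophils the differences were smaller. Slc2a1 was 2.00-fold higher (24.0 against 48.1 CPM, log2 1.00) and higher in 5 of 5 libraries, and it sits on the threshold, falling below it without library 1, 4, 5 or 6 (log2 0.95 to 1.00). Hif1a was at log2 0.83 and higher in 5 of 5 libraries, while Hk2 was at -0.66 and lower in 5 of 5. The genes called were 1 higher and 0 lower of 9, against 7.70% and 22.5% of the 6404 genes tested.

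**Figure D2:**
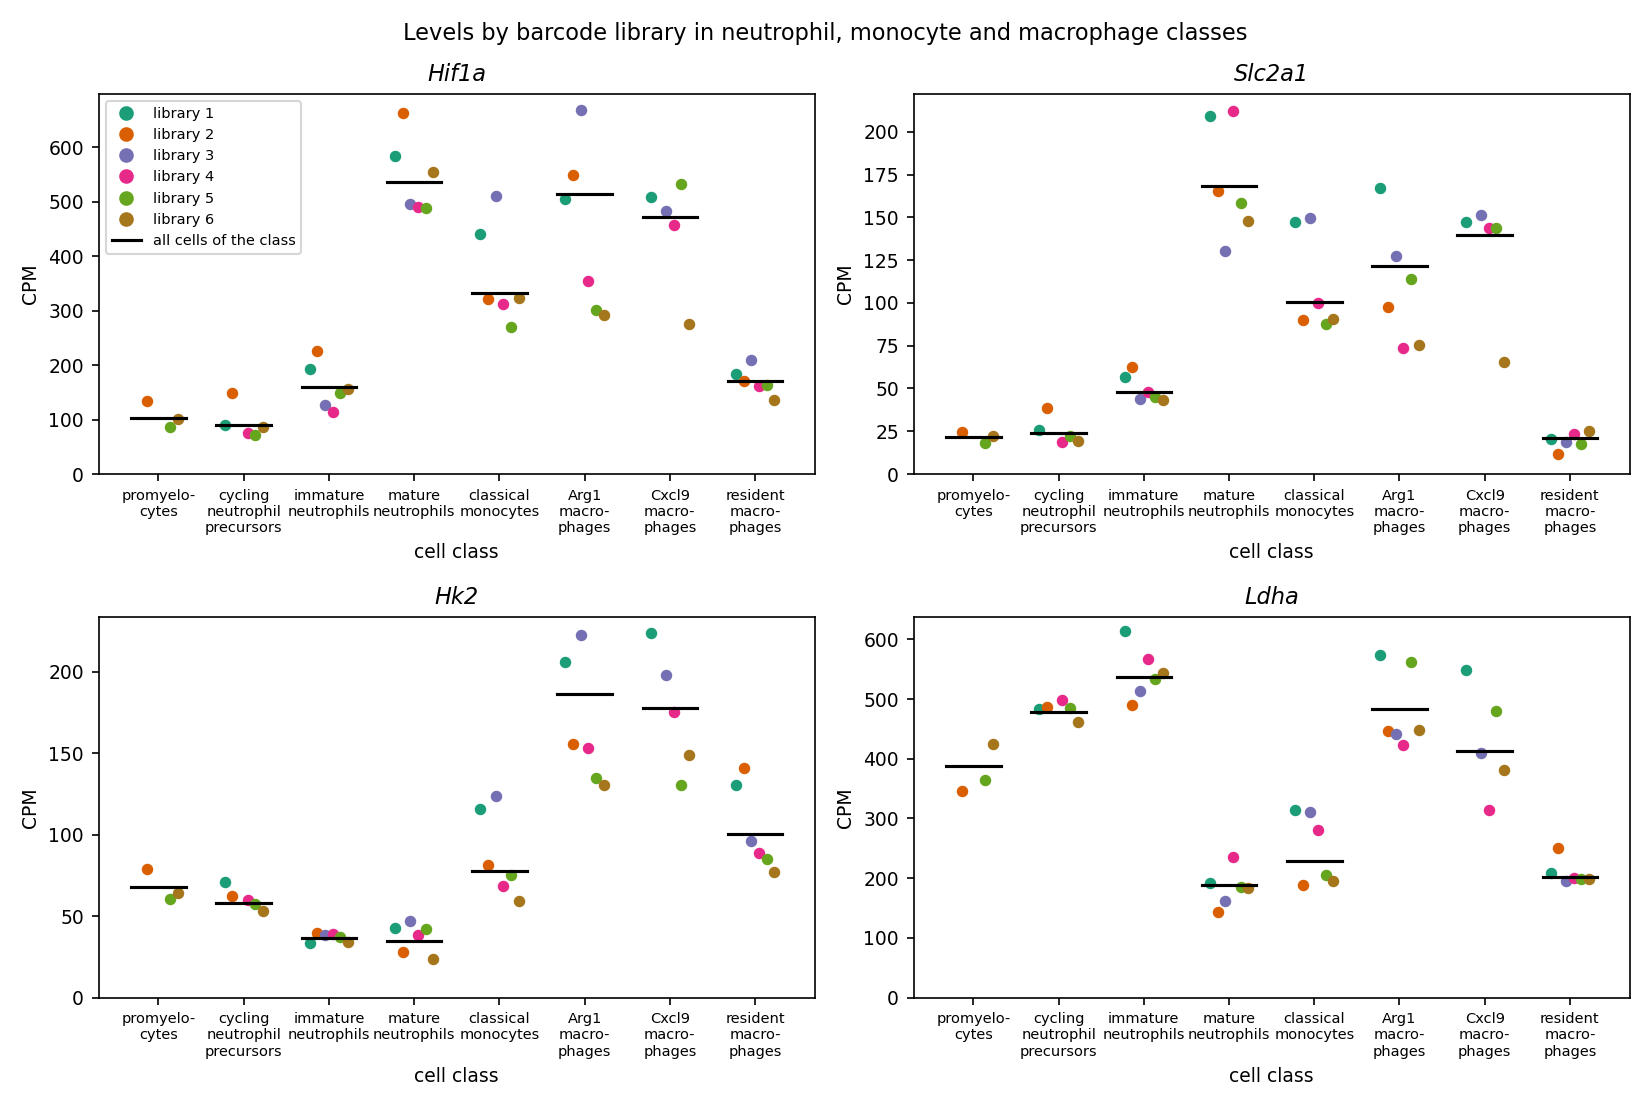
CPM of Hif1a, Slc2a1, Hk2 and Ldha (vertical axes) by cell class, 1 point per barcode library with at least 20 cells and a line for all cells of the class. The 6 mature neutrophil libraries lie above the 6 immature ones for Hif1a and Slc2a1 and below them for Ldha, and resident macrophages lie under Arg1 macrophages in all 6 libraries for Hif1a, Slc2a1 and Ldha.

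Among macrophages, the Arg1 class was set against resident macrophages and against classical monocytes, the Ly6c2 and Ccr2 cells that inflamed tissue recruits from blood. Against resident macrophages all 9 genes stood higher in 6 of 6 libraries, and 8 were called. Slc2a1 was 122 against 20.8 CPM (5.85-fold, log2 2.55; libraries 1.58 to 3.08), Hif1a 515 against 171 CPM (3.01-fold), Pgk1 38.4 against 12.8 CPM (log2 1.58) and Pkm 736 against 272 CPM (2.70-fold). Ldha (484 against 203 CPM), Eno1 (323 against 137 CPM), Aldoa (589.5 against 260 CPM) and Pfkl (46.5 against 21.2 CPM) differed 2.19 to 2.39-fold. Hk2 was the gene left under the threshold, with 186 against 100.4 CPM (log2 0.89; 0.14 to 1.22).

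These 8 higher and 0 lower genes compare with 7.60% higher and 12.0% lower among the 8326 genes tested. The median log2 ratio of the 9 genes was 1.26 (libraries 1.01 to 1.48), against -0.08 for all genes. The library ranges of the 2 classes did not overlap for the 8 genes called, and they overlapped for Hk2 (77.2 to 141 CPM in resident and 130 to 223 CPM in Arg1 macrophages). Without library 1, Pfkl fell to log2 0.95 and Hk2 rose to 1.01. With unsupervised clusters in place of gates the direction stayed but no gene reached 2-fold, the median being 0.71. A cluster took the name of its most frequent class if that class held at least 20% of it. Gated Arg1 macrophages made up 34.5% of the cluster of that name, and gated resident macrophages 30.8% and 49.6% of theirs.

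Against classical monocytes the differences were smaller. Hk2 was 186 against 77.6 CPM (2.40-fold, log2 1.26) and Ldha 484 against 229 CPM (2.12-fold, log2 1.08), both higher in 6 of 6 libraries. The other 7 lay between log2 0.24 (Pgk1) and 0.89 (Pfkl), and Slc2a1 was higher in 3 libraries and lower in 3. Thus 2 of 9 genes were higher and 0 lower, against 10.4% and 6.44% of the 7954 genes tested, and the median log2 ratio was 0.60 (libraries 0.01 to 0.70; all genes 0.10). The pooled Hk2 ratio exceeded that of any single library (0.83 to 1.16), and libraries 1 and 3, which had the highest Hk2 in both classes, gave 149 and 185 of the 592 Arg1 macrophages but 80 and 96 of the 1214 monocytes. The median of the library values gave 0.98 for Hk2 and 0.88 for Ldha, and no call. Pfkl passed 2-fold (1.02) without library 3.

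Cxcl9 and Arg1 macrophages were close. No gene of the 9 was called in either direction, where 3.37% of the 7766 genes tested were higher and 4.55% lower in Cxcl9 macrophages. Aldoa showed the greatest distance (455 against 589.5 CPM, log2 -0.37), and Slc2a1 lay on the other side (140 against 122 CPM, log2 0.20). Eno1, Pkm and Ldha were lower in 5 of 5 libraries (log2 -0.42 to -0.02).

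The level of Arg1 itself was then used as a scale, a split chosen after the values had been seen. Non-cycling Csf1r cells with at most 1 neutrophil marker and without Flt3, Cd79a, Cd3e or Siglech were taken. Those with a Lyve1 UMI or in the resident, Fxyd2, type 2 dendritic or migratory dendritic gates were left out. The remaining cells were divided by their Arg1 UMIs into 0 (2994 cells), 1 to 2 (240), 3 to 9 (190) and 10 or more (217). The gates of monocytes and Cxcl9 macrophages exclude Arg1, so these classes fall in the lowest bin alone and the bins also differ in cell class. Hif1a stood at 338, 428, 507 and 661 CPM over these bins, Aldoa at 386, 520.2, 599 and 729 CPM and Ldha at 292, 428, 506 and 582 CPM. Hk2 went from 107 to 213 CPM and Pkm from 572 to 861 CPM. Slc2a1 was at 104, 109, 122 and 169 CPM, and Vegfa, the angiogenic factor and a classical target of hypoxia-inducible factor, at 106, 180.4, 211 and 374 CPM. The mitophagy receptor Bnip3 also rose (23.2, 51.5, 65.4 and 94.1 CPM). Slc2a3 stood at 7.50, 9.11, 6.45 and 5.60 CPM. Pfkfb3, which makes the activator of phosphofructokinase, showed no steady rise (93.5, 82.7, 73.6 and 95.2 CPM). Libraries 1 and 3 gave 822 of the 2994 cells of the lowest bin (27.5%) but 148 of the 217 of the top bin (68.2%), so the pooled levels mix libraries differently. Within libraries 1 to 4, which had enough cells in both, the top bin stood above the lowest in 4 of 4 for each of the 9 genes, with log2 ratios of 0.45 to 1.07 for Hif1a (pooled 0.97), 0.30 to 0.82 for Hk2 (pooled 1.00), 0.44 to 0.54 for Slc2a1 (pooled 0.71) and 0.58 to 1.23 for Ldha. The pooled ratios of Hk2 and Slc2a1 thus exceeded those of every library. The median depth was 14810 UMIs per cell in the lowest and 19081 in the top bin, and the part of depth was not tested. Arg1 has itself been described as a target of the factor.

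Mature neutrophils and Arg1 macrophages had the highest pooled Hif1a, and the 2 classes were compared for all 9 genes. Pooled Hif1a differed by log2 0.06 (536 against 515 CPM), yet within libraries it was higher in mature neutrophils in 5 of 6 (log2 -0.43 in library 3, 0.21 to 0.93 in the others). Libraries 1 and 3 gave 334 of the 592 Arg1 macrophages and libraries 5 and 6 gave 2585 of the 3982 mature neutrophils. Slc2a1 differed by log2 0.47 in the pooled cells, while Hk2 was 5.37-fold lower in mature neutrophils (34.7 against 186 CPM, log2 -2.42) and Ldha 2.57-fold lower (189 against 484 CPM, log2 -1.36). Eno1 (142 against 323 CPM) and Pfkl (22.4 against 46.5 CPM) were 2.28 and 2.07-fold lower. Hk2, Pfkl, Eno1 and Ldha were lower in 6 of 6 libraries, and Slc2a1 was higher in 6 of 6. The 4 lower and 0 higher genes stand against 55.4% lower and 12.3% higher of 7953 genes tested. Lower calls were thus no more frequent among the 9 genes than among all genes. The median of the 9 genes (-0.78) lay above that of all genes (-1.22). Scaled to the median gene, which stood at -0.70, instead of the total, the median was -0.079, Hk2 alone stayed lower (log2 -1.73) and Slc2a1 became 2-fold higher (log2 1.16). Without library 1 or 5, Pfkl was at -0.81 or -0.96.

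**Figure D3:**
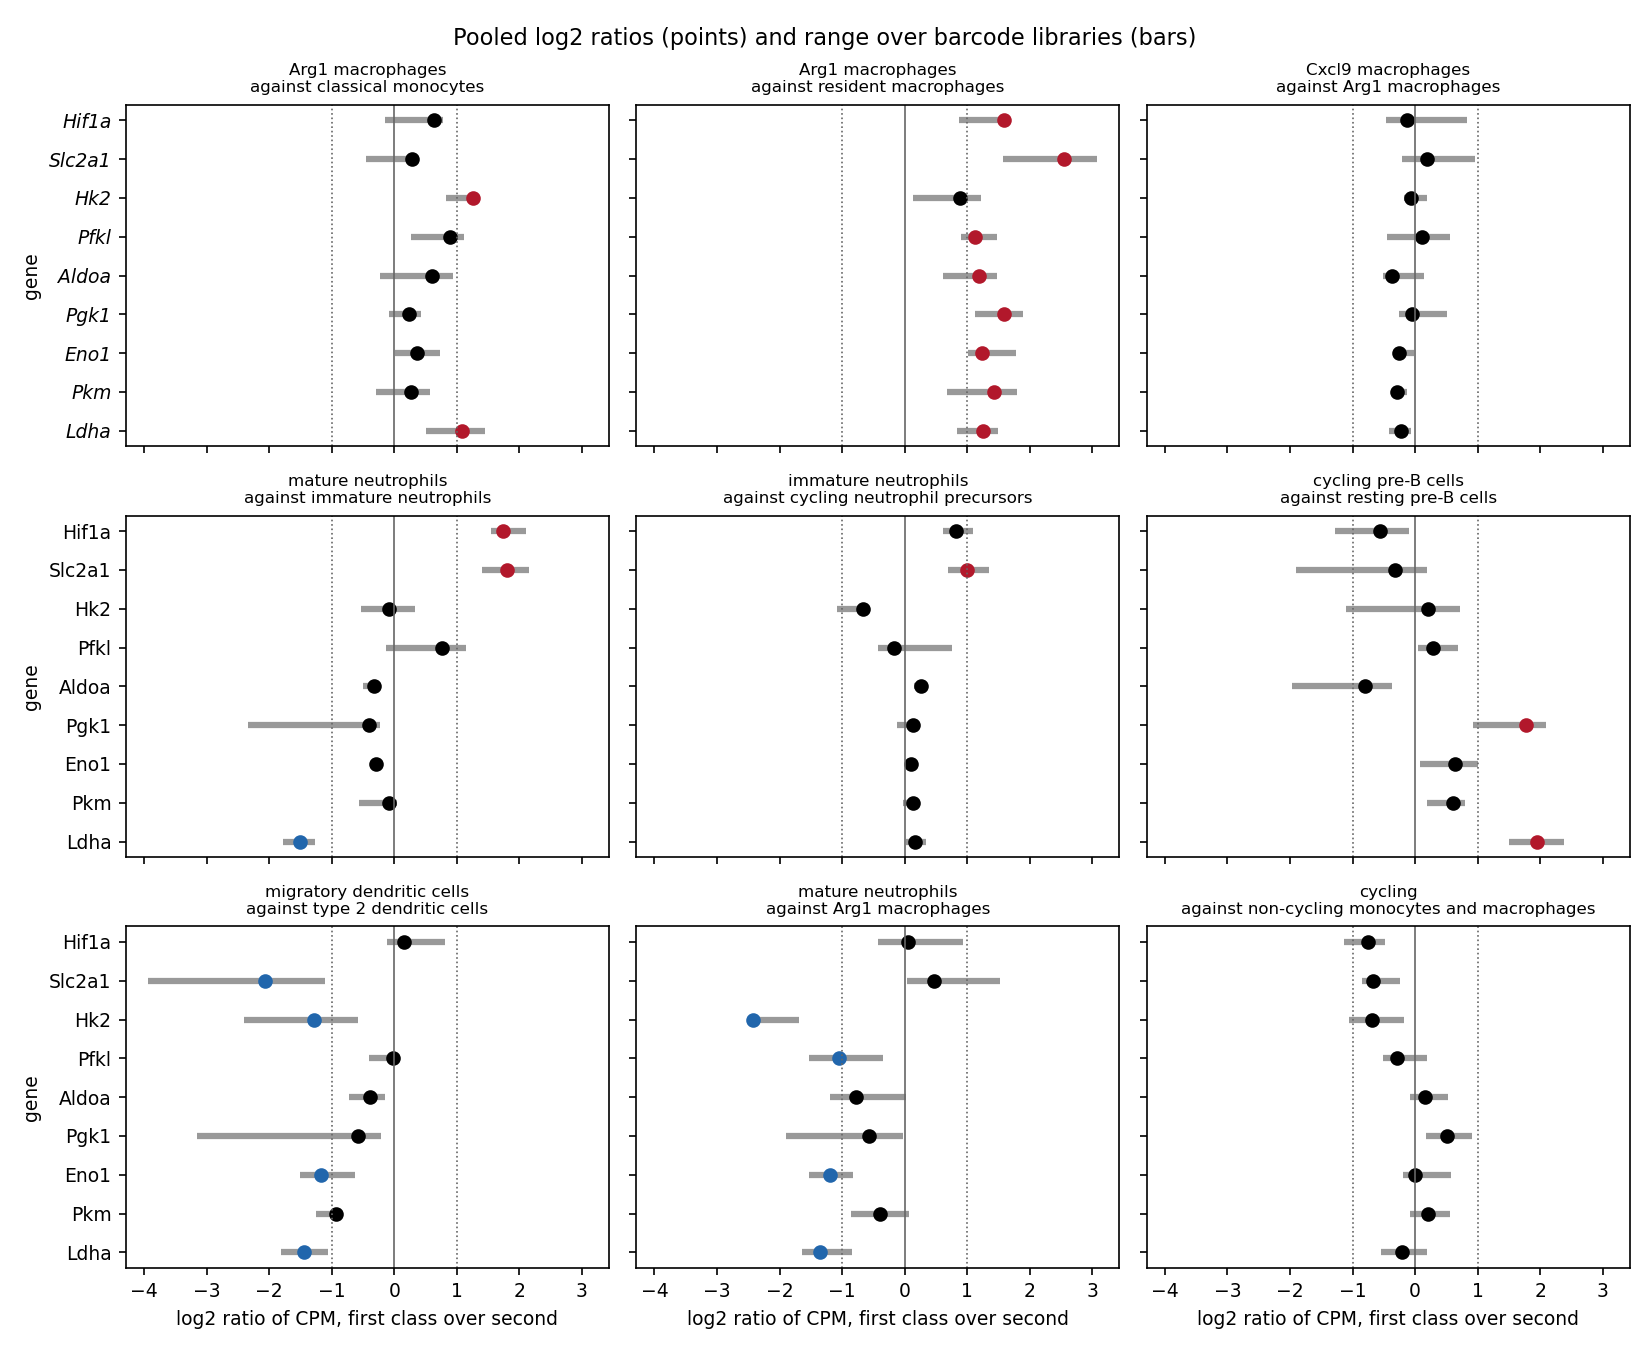
Log2 ratio of pooled CPM between the 2 classes named above each panel (points) for the 9 genes, with bars from the lowest to the highest library and dotted lines at 2-fold. Red and blue points are genes called higher or lower, among them 8 of 9 in Arg1 against resident macrophages and none in Cxcl9 against Arg1 macrophages.

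Dendritic cells that carry the migration receptor Ccr7 and Fscn1 were compared with type 2 dendritic cells, the Cd209a subset. Only libraries 1 and 3 held enough of the 94 migratory cells. Slc2a1 was 16.1 against 67.4 CPM (4.20-fold lower, log2 -2.07), Ldha 136 against 370.4 CPM (2.71-fold lower), Hk2 55.6 against 136 CPM (2.44-fold lower) and Eno1 87.1 against 196 CPM (2.25-fold lower), all lower in both libraries. The Hk2 of libraries 1 and 3, 30.0 and 99.2 CPM, differed widely, and Hk2 was just under 2-fold without library 1. Pgk1 passed 2-fold without it (log2 -1.20), and Pkm without library 3 (-1.02). Hif1a showed no difference of that size (184 against 165 CPM, log2 0.15). The 4 lower and 0 higher genes stand against 19.5% lower and 11.3% higher of 7757 genes tested, with medians of -0.93 for the 9 genes and -0.22 for all. Scaled to the median gene, which stood at -0.16, the same 4 genes stayed at least 2-fold lower, whereas without the limit on neutrophil markers in the gates Eno1 was at log2 -0.94 and lost its call.

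Cycling and resting pre-B cells, B-cell precursors in and after their proliferative phase, differed in Ldha and Pgk1. Ldha was 176 against 45.4 CPM (3.87-fold higher, log2 1.95; libraries 1.51 to 2.39) and its library ranges, 152 to 195 and 29.1 to 59.5 CPM, did not overlap. Pgk1 was 20.4 against 5.99 CPM (3.40-fold higher), with only 33 UMIs in the resting cells. Eno1 and Pkm were higher in 6 of 6 libraries at log2 0.65 and 0.60. Hif1a (82.3 against 121 CPM, log2 -0.56) and Aldoa (48.7 against 85.0 CPM, log2 -0.80) were lower in 6 of 6 libraries. Hk2 stayed under 10 CPM in both classes and was not tested. Thus 2 of 8 genes were higher and 0 lower, where 15.7% of 8502 genes were higher and 11.6% lower.

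Csf1r cells without Flt3, Cd79a, Cd3e or Siglech and with at most 1 neutrophil marker were divided by 10 cell cycle genes. The 1267 with at least 4 of these genes, named cycling monocytes and macrophages, were compared with the other 5041. Promyelocyte markers were not excluded here. Of the promyelocytes, 62.0% had a Csf1r UMI, so granulocyte precursors can be among the compared cells. None of the 9 genes was called, against 11.5% of 8513 genes higher and 12.6% lower. Hif1a was 197 against 334 CPM (log2 -0.76), Slc2a1 57.4 against 91.9 CPM (-0.68) and Hk2 75.2 against 121 CPM (-0.69), each lower in 6 of 6 libraries, and Pgk1 was 42.5 against 30.0 CPM (0.50) and higher in 6 of 6. The mixture of classes differs between these cells. Within the classical monocyte gate alone, the ratio was -0.66 for Hif1a, -0.63 for Slc2a1, -0.11 for Hk2 and 0.30 for Pgk1, with 10.2% of genes higher and 5.05% lower.

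Enzymes with several genes were then read as shares of a family's UMIs, which assumes that the 3′ tags of its genes are captured alike. Slc2a3 (GLUT3, the high-affinity transporter) made up 76.4% of the UMIs of Slc2a1, Slc2a3 and Slc2a6 in mature neutrophils (95% interval 75.8 to 76.9; libraries 74.0 to 77.7) and 80.5% in immature ones, against 4.15% in Arg1 macrophages (3.25 to 5.22), where Slc2a1 held 79.9%. In CPM, Slc2a3 was at 890.1 in mature neutrophils and at 6.33 in Arg1 macrophages. Hexokinases also differed between neutrophils and Arg1 macrophages. Hk3, the myeloid isozyme, held 59.0% of the hexokinase UMIs in mature and 65.4% in immature neutrophils, whereas Hk2 held 59.7% in Arg1 macrophages and 93.5% in fibroblasts, and Hk1, the ubiquitous form, 94.7% in pro-B cells. No library of the mature or immature neutrophils overlapped with those of Arg1 macrophages in the share of Slc2a3 or Hk3. Cxcl9 macrophages and classical monocytes resembled Arg1 macrophages, with Slc2a1 at 74.1% and 70.9% and Hk2 at 55.4% and 50.7%. The 2 families did not always go together. Promyelocytes had Hk3 at 55.2% but Slc2a1 at 50.9%, and progenitors Slc2a3 at 74.8% but Hk3 at 7.20%.

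Pfkl was a minor phosphofructokinase gene in most classes, with 24.0% of the family's UMIs in Arg1 macrophages and 40.8% in progenitors, where it came close to the platelet-type Pfkp (42.8%). Pfkp held 75.1% in Arg1 macrophages, 83.0% in mature neutrophils and 94.6% in type 2 dendritic cells. Ldhb, which favours the oxidation of lactate, made up 24.1% of the UMIs of Ldha and Ldhb in plasmacytoid dendritic cells (22.0 to 26.2) and 8.88% or less in the other 24 classes.

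**Figure D4:**
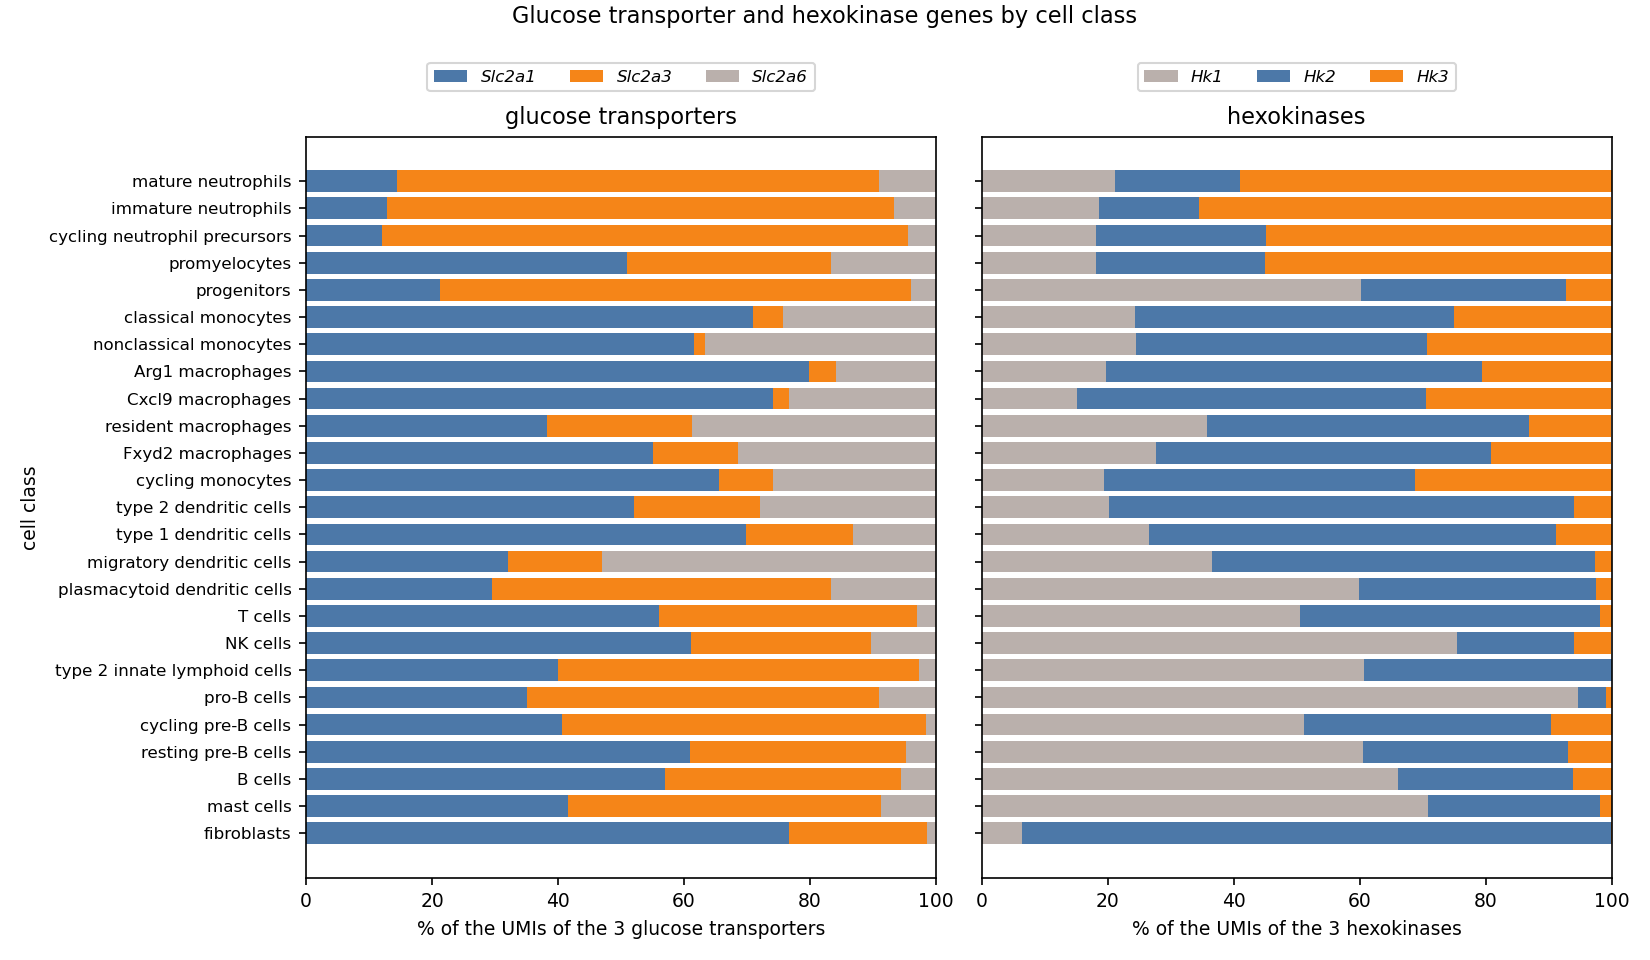
Share of each gene in the UMIs of 3 glucose transporter genes (left) and 3 hexokinase genes (right), in % on the horizontal axes, for 25 cell classes. Slc2a3 and Hk3 dominate in neutrophils (76.4% and 59.0% in mature cells) and Slc2a1 and Hk2 in Arg1 macrophages (79.9% and 59.7%).

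Of the other genes of the pathway, lists were made of 20 glycolysis genes, 12 genes of the oxygen-sensing pathway and 23 textbook targets of hypoxia-inducible factor, and those above the expression minimum were counted. The lists were chosen with earlier results of these data known, and the Arg1 gate itself requires a described target. The counts are therefore a description and no test. In Arg1 macrophages 7 of 17 hypoxia targets tested were 2-fold higher and 0 lower than in classical monocytes, where 10.4% of all genes tested were higher and 6.44% lower. Hilpda, an inhibitor of lipid droplet breakdown, was 127 against 28.2 CPM, Bhlhe40, a transcriptional repressor, 148 against 33.3 CPM, the mitophagy receptor Bnip3 66 against 18.3 CPM, the cytokine Mif 357 against 99.2 CPM and Vegfa 246 against 102 CPM, each higher in 6 of 6 libraries. Of 9 oxygen-sensing genes tested 2 were higher and 0 lower. Among them the oxygen sensor Egln1, a prolyl hydroxylase that marks Hif1a for degradation, was 50.1 against 25 CPM. Triose phosphate isomerase (Tpi1), between aldolase and Gapdh, was 299 against 108 CPM. Of the 13 other glycolysis genes tested it was the 1 that was higher, and 1 was lower.

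Against resident macrophages 8 of 17 hypoxia targets and 5 of 13 other glycolysis genes were higher in Arg1 macrophages, and none of either was lower, against 7.60% of all genes higher and 12.0% lower. Of 9 oxygen-sensing genes tested 1 was higher and 0 lower. Vegfa was 246 against 5.63 CPM, the lactate exporter Slc16a3 219.6 against 35.7 CPM, the lipid droplet protein Plin2 835 against 160.3 CPM, Pgam1 377 against 119 CPM and Gapdh 1257 against 568 CPM. In mature against immature neutrophils 8 of 16 targets were higher and 1 lower, against 22.2% and 8.20% of all genes, among them Vegfa (107 against 40.6 CPM) and the histone demethylase Kdm3a (54.2 against 24.1 CPM), while the oxidase Ero1l was lower (80.7 against 196 CPM). Slc2a3 (890.1 against 302 CPM), Slc2a6 (107 against 24.9 CPM) and Slc16a3 (1680.1 against 728 CPM) were the 3 of 12 other glycolysis genes that were higher, a share near the 22.2% of all genes. Of 8 oxygen-sensing genes tested 2 were higher and 0 lower, again a share near that of all genes. The higher ones included Arnt, the partner subunit of Hif1a (88.9 against 43.1 CPM). In mature neutrophils against Arg1 macrophages 4 of 13 other glycolysis genes were higher and 3 lower, against 12.3% and 55.4% of all genes. Slc16a3 was 1680.1 against 219.6 CPM and Slc2a6 107 against 24.2 CPM, while Tpi1 was 49.6 against 299 CPM. Of 18 targets 0 were higher and 8 lower, and of 9 oxygen-sensing genes 0 and 4.

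Migratory dendritic cells had 7 of 13 other glycolysis genes lower than type 2 dendritic cells and 2 higher, against 19.5% and 11.3% of all genes. The higher ones were the muscle-type enolase Eno3 (147 against 3.92 CPM, in both libraries) and Pfkfb3 (261 against 63.8 CPM), which makes the activator of phosphofructokinase. Hypoxia targets leaned the other way, with 4 of 17 higher and 1 lower. Among the higher ones were Ndrg1 (425 against 171 CPM) and Bhlhe40 (604 against 273 CPM), while Hilpda was lower (40.1 against 83.1 CPM). Of 9 oxygen-sensing genes tested 1 was higher and 0 lower. In cycling pre-B cells 4 of 10 other glycolysis genes were higher than in resting ones and 0 lower, against 15.7% and 11.6% of all genes, among them Gapdh (661 against 178 CPM), Tpi1 (103 against 35.6 CPM) and Pgam1 (89.5 against 33.1 CPM), while of the hypoxia targets 2 of 14 were higher, near the share of all genes, and 4 lower, such as Ddit4 (20.5 against 52.5 CPM). In cycling Csf1r cells 5 of 15 targets were lower and 0 higher, against 12.6% and 11.5% of all genes, with Bhlhe40 at 20.3 against 122 CPM and Hilpda at 11.4 against 57.4 CPM.

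The patterns of the 9 genes over the 25 classes were compared by Pearson correlation of log2(CPM + 10), as a description over classes that share libraries and depth. The 36 pairs ranged from 0.06 to 0.90 with a median of 0.49, and 0 were negative. Eno1 and Pkm were most alike (0.90), Hif1a and Slc2a1 reached 0.77, and Hif1a and Pgk1 were least alike (0.06). Among 7803 other genes, the closest to Pgk1 were Gapdh (0.90) and Pgam1 (0.88), which stand on either side of it in the pathway. Ldha was closest to Ero1l (0.72), Hk2 to Mt1 (0.84), Aldoa to Cebpb (0.89), Pkm and Eno1 to Clec4a2 (0.91 and 0.85), Hif1a and Slc2a1 both to Ube2d3 (0.78 and 0.82) and Pfkl to Rrp1b (0.77).

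Library differences varied in size between genes. Pgk1 over all cells was 45.6, 20.8, 16.1, 32.7, 24.4 and 35.2 CPM in libraries 1 to 6. It was highest in library 1 in 8 of the 8 classes with 6 libraries and at least 100 UMIs, and lowest in library 3 in 5 of them. The highest library exceeded the lowest by a median of 3.89-fold and by up to 7.04-fold in mature neutrophils, where library 3 had 5.72 CPM and library 1 40.3 CPM. Eno1 was highest in library 1 in 10 of 12 classes and lowest in library 3 in 7 of 12, with a median spread of 1.99-fold. For Pkm, Ldha and Aldoa the median spread was 1.46, 1.48 and 1.45-fold. Library 1 was also most often the highest for these 3 genes, in 4, 5 and 5 of 12 classes.

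In library 3, where Pgk1 and Eno1 were lowest over all cells, the copies Pgk1-rs7 and Eno1b were highest in CPM. In library 1, where both genes were highest, the copies were not lowest. Pgk1-rs7 held 25.1% of the UMIs of Pgk1 and its copy in library 3 and 6.05 to 9.09% in the other libraries, and Eno1b held 4.01% in library 3 and 1.39 to 2.04% elsewhere. In library 3 Pgk1-rs7 was at 5.37 CPM and Pgk1 at 16.1 CPM, against 3.03 and 45.6 CPM in library 1. The part of reads assigned to the copies in the level of Pgk1 was not tested. Hif1a was highest in library 3 in 5 of 12 classes and lowest in library 6 in 4. Since library and treatment cannot be told apart without a key to the barcodes, no direction by treatment follows.

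**Figure D5:**
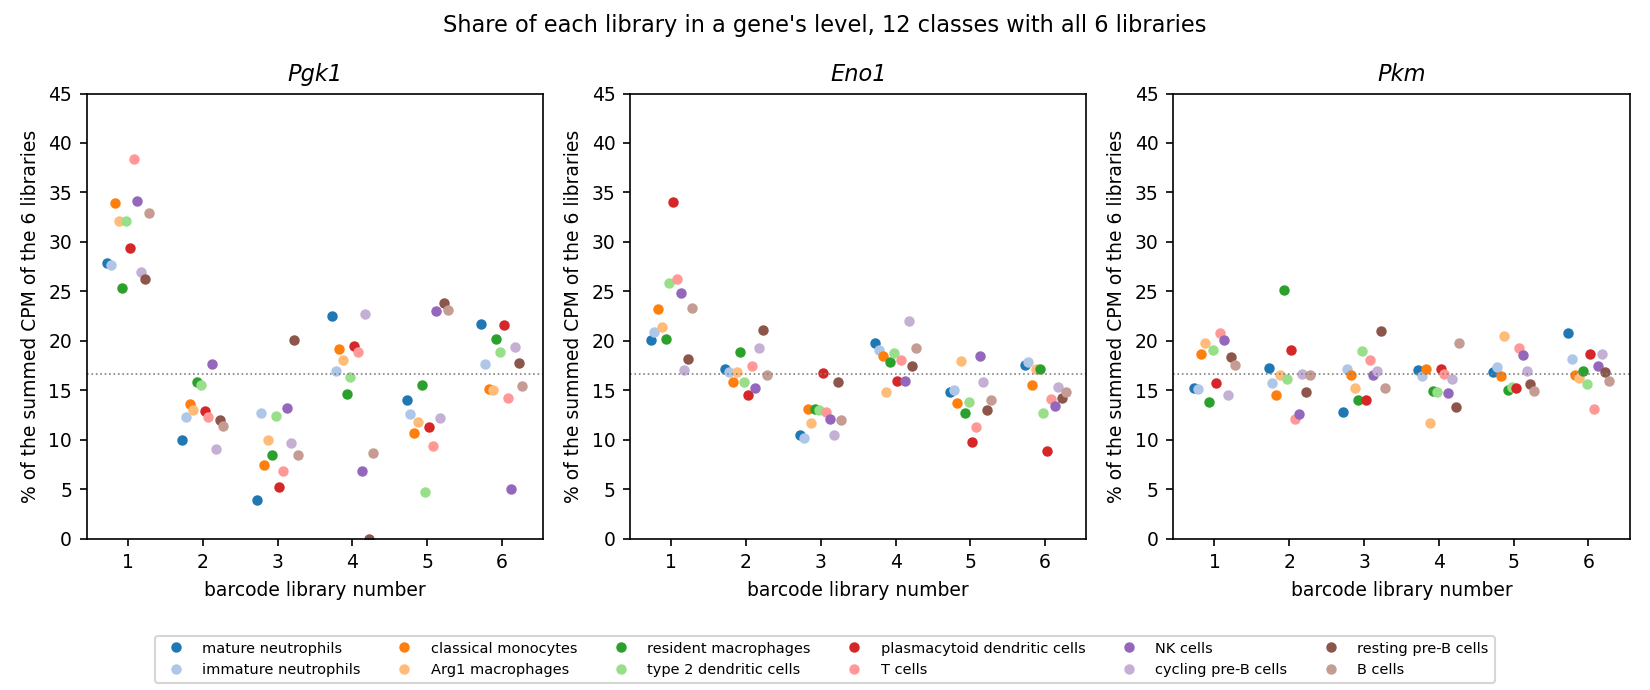
Share of each barcode library (horizontal axis) in the summed CPM of the 6 libraries, in %, for Pgk1, Eno1 and Pkm, with 1 point per class for the 12 classes that all 6 libraries hold and a dotted line at an equal share. Library 1 stands above the line for Pgk1 in all 12 classes, and the Pkm points stay near the line except for library 2 in resident macrophages.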

How the data were processed

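CD45+ synovial cells of 6 samples were measured by droplet-based 3′ single-cell RNA-seq. The authors aligned reads to mm10 with Cell Ranger (version 7, per the labels), removed ambient RNA with SoupX and doublets with DoubletFinder, filtered cells with Seurat and deposited 1 matrix of whole-number UMI counts, with 20394 genes and 32953 cells. Stored zeros made up 1.68% of its entries. No further doublet caller was run here.

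Members and lists were chosen with earlier results of these data known, and the gate thresholds were set on markers after the files had been seen. Counts were summed per class and library (Python 3.11.15, numpy 2.4.6, scipy 1.17.1) and divided by their total (CPM). Levels have exact Poisson and shares exact binomial intervals (95%). No test was run, because barcodes are not tied to labelled samples. The paper describes a capture for each biological replicate and the integration of 6 samples. No label ties a library number to a sample, so whether each library is 1 replicate could not be checked. The genes named are the 9 members and, per list and comparison, at most 5 genes past 2-fold with at least 50 CPM, plus the most alike genes. The ratios, intervals and calls were tested on simulated counts. Alternatives covered clusters in place of gates (scanpy 1.11.5), stricter gates, scaling, thresholds, depth, thinning to 3000 UMIs and each library left out.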

Additional observations from a re-analysis of the deposited data

How the results depend on the processing

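All 24 calls of a gene kept their sign under every alternative that gave a value. Of 1134 alternative log2 ratios of single genes 330 moved, and 0 changed from a call in one direction to a call in the other. Such a change was possible only for the 24 calls, so the 0 says nothing about ratios without a call. Of 126 alternative medians 11 moved, and of 270 counts of called genes 26. With unsupervised clusters in place of gates, Arg1 macrophages against classical monocytes had a median log2 ratio of 0.16 and 0 genes higher, Arg1 against resident macrophages 0.71 and 0 higher, Cxcl9 against Arg1 macrophages 0.27, cycling against resting pre-B cells -0.12 and 1 lower, immature neutrophils against cycling precursors 0 higher, and mature neutrophils against Arg1 macrophages 1 lower. Migratory dendritic cells formed no cluster, so that alternative gave no value. Scaling by median of ratios gave 1 gene higher for Arg1 macrophages against monocytes, a median of -0.30 for mature against immature neutrophils, and -0.079, 1 higher and 1 lower for mature neutrophils against Arg1 macrophages. Leaving out mitochondrial and ribosomal protein genes gave 1 higher for Arg1 macrophages against monocytes and 0 for immature neutrophils against precursors. The median of the library values gave 0 higher for Arg1 macrophages against monocytes and a median of 0.17 for Cxcl9 against Arg1 macrophages. At 1.5-fold, 5 genes were higher for Arg1 macrophages against monocytes, 2 higher and 1 lower for immature neutrophils against precursors, 4 higher and 1 lower for cycling against resting pre-B cells, and 3 lower in cycling Csf1r cells. Without the 5% of cells with most UMIs, the median of mature against immature neutrophils was -0.25 and cycling pre-B cells had 1 gene lower. Alternatives chosen after seeing the data gave the following. Without the limit on neutrophil markers, 1 gene was higher for Arg1 macrophages against monocytes, the median against resident macrophages was 1.00, that of mature against immature neutrophils -0.23, 0 genes were higher for immature neutrophils against precursors and 2 lower for mature neutrophils against Arg1 macrophages. Without barcodes found in 2 libraries, 0 genes were higher for immature neutrophils against precursors. With a library left out, the median of mature against immature neutrophils ranged from -0.21 to -0.10 and the genes higher in immature neutrophils against precursors from 0 to 1. The cause of these changes was not tested. No paired analysis was possible because barcodes carry no label that ties a library to PBS or PEPITEM, so the replicate block of these groups was not run. This concerns treatment alone, since the 2 classes of a comparison were also read within each library, with ranges or counts of those ratios given and no test made on them. Pgk1 rests on few counts (33 UMIs in resting pre-B cells), and the share of cells with a UMI moved under thinning in 220 of 225 values.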

Other observations

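Non-cycling Csf1r cells with at least 2 neutrophil markers (2758 cells outside both neutrophil classes, median 22584 UMIs per cell) entered no comparison. Hif1a was at 407 CPM in them (libraries 314, 369 and 579 CPM at the lowest, median and highest), Slc2a1 at 110.4 CPM (85.0, 109 and 129.96), Hk2 at 112 CPM (74.6, 99.2 and 177) and Ldha at 362 CPM (310.4, 356 and 403). Pkm stood at 545 CPM, Aldoa at 391 CPM, Eno1 at 193 CPM, Pfkl at 28.6 CPM and Pgk1 at 26.5 CPM.

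The pooled Hif1a level of mature neutrophils and Arg1 macrophages nearly coincided, but library 3 had the highest Hif1a of the 6 libraries in Arg1 macrophages (669 CPM) and library 6 the lowest (291 CPM), while in mature neutrophils library 2 was highest (664 CPM) and library 5 lowest (489 CPM). The hypoxia target Adm gave 3 UMIs among the 2994 non-cycling Csf1r cells of the bin without Arg1 UMIs. It gave 0 in the bins with 1 to 2, 3 to 9 and 10 or more Arg1 UMIs.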
